A study of Mus musculus with 5 samples.

Results

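Of 54838 genes listed, 6 small noncoding RNA genes of the mouse were examined in N2a cells, a neuroblastoma line. They are Snord118, Snord13, Rn7sk, Rmrp, Rpph1 and Terc, RNAs outside the spliceosome that are transcribed as independent units by RNA polymerase II or III. The genes were chosen by name and function, but with values of the siEwsr1 against siCtrl comparison already known, so their difference between the groups is described here and not tested. Libraries of total RNA depleted of ribosomal RNA came from cells transfected with a control siRNA (siCtrl, 2 libraries) or with an siRNA against Ewsr1 (siEwsr1, 3 libraries). Both groups received 2 lipid transfections and were collected 24 hours after the last one. The labels do not tie the libraries of a group to separate cultures, so errors and p-values reflect variation from library to library, possibly only of technical origin. Of the 6 genes, 5 were above 0 in every library and 1, Rmrp, was listed at 0 in all 5 libraries.

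These RNAs act in ribosome assembly, transcription, tRNA processing and telomere synthesis. Snord118 encodes U8, a box C/D small nucleolar RNA needed to mature the large-subunit ribosomal RNAs, and Snord13 encodes U13, which guides an acetylation of the small-subunit ribosomal RNA. Most box C/D RNAs are cut out of introns, whereas U8 and U13 are made from genes of their own. Rn7sk encodes 7SK, a scaffold RNA that holds the elongation kinase P-TEFb in an inactive particle. Rmrp and Rpph1 encode the related RNAs of RNase MRP, which cleaves precursor ribosomal RNA, and of RNase P, which trims the leading end of precursor tRNA. Terc encodes the RNA that telomerase copies into telomere repeats. Whether each RNA came from its own promoter was not measured here. Ewsr1, the gene targeted, encodes an RNA- and DNA-binding protein.

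The box motifs that define a box C/D RNA are shown in the sequence of U8 from GENCODE M21 on GRCm38, written with T for U, 5′ to 3′, with the box C motif TGATGA and every box D motif CTGA in capitals. Snord118 (ENSMUSG00000064899) lies at chr11:69073427-69073561 on the plus strand and is 135 bases long. Its TGATGA starts at position 53 and its last CTGA, at position 131, ends 1 base before the end of the RNA. Snord13 (ENSMUSG00000088252) is 104 bases long. The GC content of the 6 RNAs ran from 45.9% in Snord118 to 67.1% in Rpph1 and Terc.
Snord118: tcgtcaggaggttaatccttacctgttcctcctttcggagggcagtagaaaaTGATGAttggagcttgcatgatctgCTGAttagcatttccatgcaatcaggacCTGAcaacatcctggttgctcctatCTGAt

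The first 100 bases of 7SK and the first 80 bases of the Terc entry carry elements that these RNAs use. Rn7sk (ENSMUSG00000065037) lies at chr9:78175303-78175633 on the minus strand and is 331 bases long. Capitals mark GATC, an element repeated in the 5′ hairpin that Hexim1 binds, at positions 13, 42 and 64. Terc (ENSMUSG00000064796) lies at chr3:96414437-96414859 on the minus strand and is 423 bases long in GENCODE. Capitals mark CTAACCC, the telomere template, at position 29. The RefSeq entry of Terc is 397 bases long and starts 26 bases later, which puts the template at position 3. The last ACA of the Terc entry ends 3 bases before its end, the place at which an H/ACA RNA carries it.
Rn7sk: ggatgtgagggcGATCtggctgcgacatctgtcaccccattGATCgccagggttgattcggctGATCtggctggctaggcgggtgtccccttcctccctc
Terc: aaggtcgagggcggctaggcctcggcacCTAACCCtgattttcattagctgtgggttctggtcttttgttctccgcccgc

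Rpph1 and Rmrp share annotated bases with other genes, which bears on how their reads can be counted. Rpph1 (ENSMUSG00000092837, chr14:50807449-50807767, minus strand) is 319 bases long, and 233 of these, positions 36 to 268, lie inside the first exon of Ccnb1ip1 on the same strand. Only 35 bases at its start and 51 at its end, 86 in all, belong to Rpph1 alone. They are in capitals in the stretches below, which are positions 1 to 60 and 250 to 319. Rmrp has a pair of entries on the minus strand, a lincRNA of 281 bases (ENSMUSG00000115420, chr4:43492783-43493063) and a ribozyme of 271 bases (ENSMUSG00000088088, chr4:43492788-43493058). The shorter entry lies wholly inside the longer one, and the 5 bases on either side that only the longer entry holds are in capitals.
Rpph1 start: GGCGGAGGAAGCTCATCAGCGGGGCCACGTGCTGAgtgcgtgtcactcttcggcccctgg
Rpph1 end: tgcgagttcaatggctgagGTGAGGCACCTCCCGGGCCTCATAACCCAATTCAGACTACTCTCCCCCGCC
Rmrp: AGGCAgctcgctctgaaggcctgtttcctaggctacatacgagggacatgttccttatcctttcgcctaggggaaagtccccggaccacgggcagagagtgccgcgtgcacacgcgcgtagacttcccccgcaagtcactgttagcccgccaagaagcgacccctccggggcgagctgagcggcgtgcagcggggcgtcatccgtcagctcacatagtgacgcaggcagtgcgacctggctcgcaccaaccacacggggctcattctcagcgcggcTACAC

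**Figure D1:**
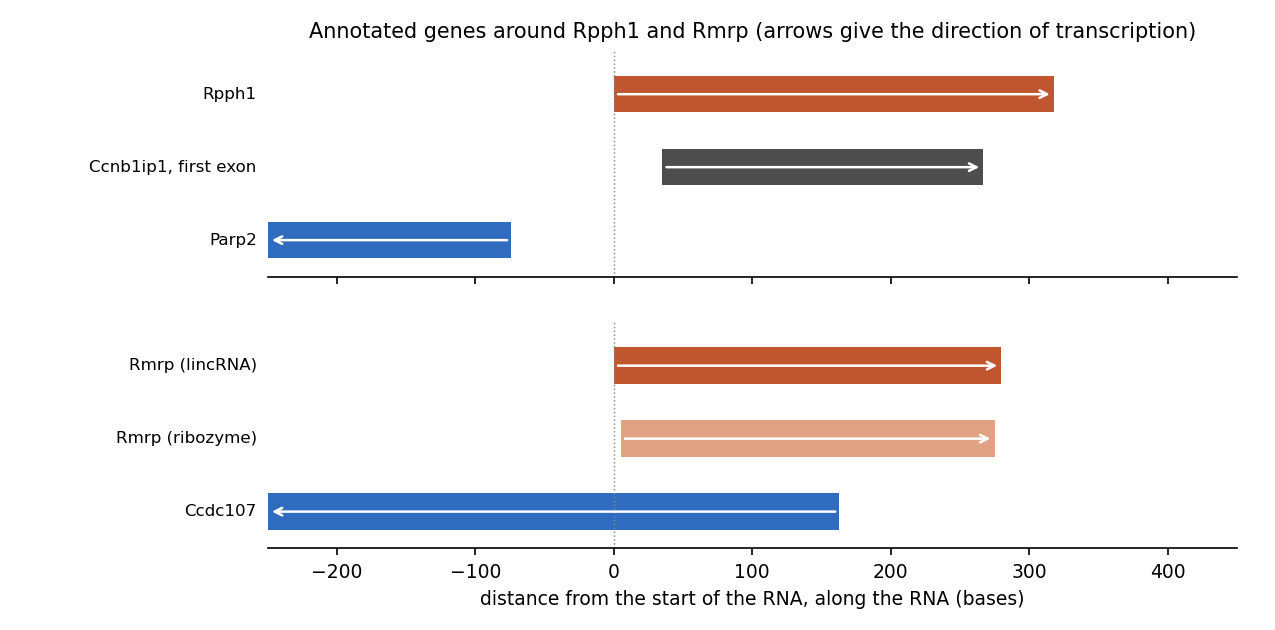
Annotated genes around Rpph1 (top) and Rmrp (bottom), drawn against the distance in bases from the start of the RNA; arrows give the direction of transcription, and genes that run past the frame end at its edge. The first exon of Ccnb1ip1 covers 233 of the 319 bases of Rpph1, and the entries of Rmrp share 271 bases.

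Rpph1, Rmrp and Rn7sk each have a neighbour on the other strand whose RefSeq promoter window covers the bases before the small RNA. These windows (GRCm38.p6) run from 250 bases before to 50 after the start. None of the 6 genes has a RefSeq window of its own, so the stretches were read from the windows of Parp2, Ccdc107 and C920006O11Rik. In GENCODE M21, unlike in RefSeq, Ccdc107 starts inside the Rmrp entries, at chr4:43492900. TATAA, ATTTGCAT (the octamer bound by Oct-1) and CCAAT were searched on both strands. Of 32851 promoter windows of 300 bases, 24.9% held TATAA, 1.74% held ATTTGCAT and 37.4% held CCAAT. Before Rpph1, bases 198 to 1 were searched, and the octamer lies on the other strand at 100 to 93 bases before the start and TATAA on the other strand at 33 to 29. Before Rmrp, bases 356 to 57 were searched, with the octamer at 223 to 216, CCAAT at 75 to 71 and TATAA on the other strand at 168 to 164. Before Rn7sk, bases 330 to 31 were searched, with TATAA starting at 140 and at 97 on the RNA strand. On the other strand TATAA lay at 98 to 94, and CCAAT lay at 242 to 238 on the RNA strand. The bases nearest the start of Rmrp and of Rn7sk were not covered. The stretch searched before Rpph1 was shorter than the windows of 300 bases. ATTTGCAT did not occur in the bases searched before Rn7sk. A match is a description of these letters and not of a bound site. In the stretches printed, capitals mark the octamer and, before Rpph1 and Rn7sk, TATAA on either strand.
Rpph1 upstream (chr14:50807768-50807877, minus strand): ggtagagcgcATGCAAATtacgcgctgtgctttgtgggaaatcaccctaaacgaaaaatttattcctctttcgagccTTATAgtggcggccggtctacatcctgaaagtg
Rmrp upstream (chr4:43493239-43493298, minus strand): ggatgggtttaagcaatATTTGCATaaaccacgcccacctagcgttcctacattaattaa
Rn7sk upstream (chr9:78175664-78175883, minus strand): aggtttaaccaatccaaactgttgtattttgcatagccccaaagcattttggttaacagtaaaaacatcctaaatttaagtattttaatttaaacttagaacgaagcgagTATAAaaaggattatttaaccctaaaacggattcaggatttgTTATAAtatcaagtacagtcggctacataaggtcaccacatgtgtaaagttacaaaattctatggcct

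Counted reads numbered 15766280 and 17314511 in siCtrl replicates 1 and 2 and 15045774, 21339459 and 17475740 in siEwsr1 replicates 1 to 3. Thus 1 read was worth 0.0469 to 0.0665 CPM, a scale on which each library has the same total. Levels are RPKM, reads scaled to the length of the exons and to the library total, restored to whole reads as described under the processing. Differences are log2(RPKM + 0.1) after trimmed-mean scaling, siEwsr1 minus siCtrl, with the SE of a limma fit over 14862 tested genes. In that fit Ewsr1 fell by 0.96 (SE 0.08, adjusted p = 8.304e-04), from 71.7 and 72.3 RPKM in the siCtrl libraries to 35.7, 36.3 and 37.6 RPKM in the siEwsr1 libraries. Of 15 neuroblastoma and neuronal markers, 12 were at 1 RPKM or more in every library and 1 was listed at 0. The summed level of the 15 was 964 to 980 RPKM in siCtrl and 1023 to 1157 RPKM in siEwsr1, and 4 passed the test as higher. None of 13 markers of other cell types reached 1 RPKM in every library, Col3a1 was at 0, and their summed level was 2.52 to 2.85 RPKM in siCtrl and 2.47 to 2.98 RPKM in siEwsr1. The part of these differences in the results was not tested.

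The 5 genes above 0 all had a negative difference, from -0.13 for Rn7sk to -1.38 for Snord118, with a median of -0.80 where the median of all tested genes was -0.01. In 4 of the 5 every siEwsr1 library lay below every siCtrl library, in Terc by a gap within counting error, and in Rn7sk the groups overlapped. Such a separation was found in 20.5% of all tested genes downward, and in 39.9% in either direction. At an adjusted p under 0.05, 2 of the 5 (Snord118 and Snord13) were among the genes called lower, as were 2.83% of all tested genes. Neither was called with no filter on low values, with either siCtrl library left out or with siEwsr1 replicate 1 left out. The count of members called was 1 with the variance trend on RPKM and 3 without siEwsr1 replicate 3. Because the genes were proposed with this contrast in view, nothing is read from these counts. In RNA from whole cultures, fewer cells that make an RNA and less of it per cell cannot be told apart.

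**Figure D2:**
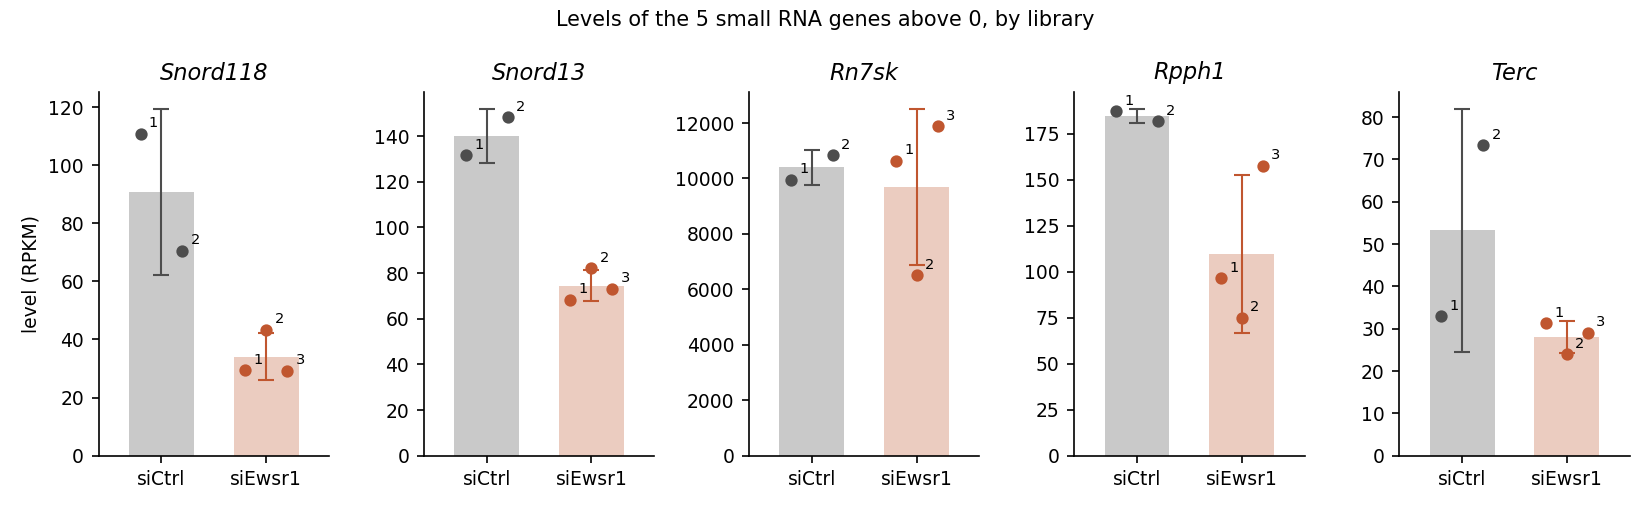
Level in RPKM (linear axis from 0) of the 5 genes above 0 in the siCtrl (n = 2) and siEwsr1 (n = 3) libraries; points are libraries with their replicate numbers, bars are group means and error bars are SDs. The lowest siCtrl library is 1.63 times the highest siEwsr1 library in Snord118 and 1.61 times in Snord13. The siCtrl libraries of Snord118 themselves differ 1.57-fold. Rpph1 in siEwsr1 replicate 3 lies near the controls, and Terc in siCtrl replicate 1 lies near the siEwsr1 libraries.

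With all libraries, U8 had the largest difference; without siCtrl replicate 1 that of Terc was larger (-1.36, against -1.04 for U8). Snord118 stood at 110.9 and 70.6 RPKM in the siCtrl libraries (236 and 165 reads) and at 29.5, 43.4 and 29.2 RPKM in the siEwsr1 libraries (60, 125 and 69 reads). The lowest siCtrl library was 1.63 times the highest siEwsr1 library, replicate 2, so the groups did not overlap, although the siCtrl libraries themselves differed 1.57-fold. Group means were 90.7 ± 28.5 RPKM in siCtrl (SD, n = 2) and 34.1 ± 8.08 RPKM in siEwsr1 (SD, n = 3), which puts siEwsr1 at 37.5% of siCtrl. The log2 difference was -1.38 (SE 0.25), and it lay between -1.71 and -1.04 when each library was left out in turn. The digits of the value in siEwsr1 replicate 1 also allow 6 reads in place of 60, and the reading nearer to the other libraries was used. Another annotated gene, Gm24208, has 96.2% identity to Snord118 and was at 0 in every library. How reads that fit both genes were assigned is not given in the sources used here. Their part in the value of Snord118 was not tested.

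U13 was the steadiest of the genes that separated the groups. Snord13 stood at 132 and 148 RPKM in siCtrl (216 and 267 reads) and at 68.4, 82.0 and 73.2 RPKM in siEwsr1 (107, 182 and 133 reads). All siEwsr1 libraries lay below both siCtrl libraries, and the highest and lowest library differed 1.13-fold within siCtrl and 1.199-fold within siEwsr1. Group means were 140.0 ± 11.7 RPKM in siCtrl (SD, n = 2) and 74.5 ± 6.91 RPKM in siEwsr1 (SD, n = 3), or 53.2% of siCtrl. The log2 difference was -0.90 (SE 0.16), with a range of -0.96 to -0.81 when each library was left out.

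Because U8 and U13 differed by unequal amounts, the ratio of Snord118 to Snord13 RPKM was taken within each library. It was 0.842 and 0.476 in siCtrl and 0.432, 0.529 and 0.3997 in siEwsr1. The groups overlapped in this ratio, since siEwsr1 replicate 2 lay above siCtrl replicate 2, so the difference in fold between U8 and U13 lay within the spread between libraries.

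Per length, 7SK was by far the most abundant of the 5 RNAs above 0, and it did not separate the groups. Rn7sk stood at 9961 and 10831 RPKM in siCtrl (51981 and 62071 reads) and at 10644, 6513 and 11885 RPKM in siEwsr1 (53010, 46006 and 68751 reads). Both siEwsr1 replicates 1 and 3 lay above at least 1 control library, and replicate 2 alone was low. Group means were 10396 ± 615 RPKM in siCtrl (SD, n = 2) and 9681 ± 2813 RPKM in siEwsr1 (SD, n = 3), or 93.1% of siCtrl, with a log2 difference of -0.13 (SE 0.21). Without siEwsr1 replicate 2 the difference turned to 0.14. The digits of siEwsr1 replicate 1 also allow 5301 reads in place of 53010, and the reading nearer to the other libraries was used. Counting error was 0.381% to 0.466% of a value, so the spread between libraries and not depth limits this comparison. The same library, siEwsr1 replicate 2, had the largest share of counted reads from mitochondrial ribosomal RNA, 2.42%, where the siCtrl libraries had 1.55% and 0.799% and the other siEwsr1 libraries 1.66% and 1.67%. The part of this in the value of Rn7sk was not tested. Of 6 other annotated genes similar over most of the length of 7SK, the closest, Gm23037 (89.2% identity), had 0 to 7 reads.

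The RNA of RNase P was lower in every siEwsr1 library than in either control, but unevenly. Rpph1 stood at 187 and 182 RPKM in siCtrl (942 and 1006 reads) and at 96.7, 75.1 and 158 RPKM in siEwsr1 (464, 511 and 879 reads). The siCtrl libraries agreed closely, siEwsr1 replicates 1 and 2 were far below them, and replicate 3 lay just under the lower control, which was 1.16 times as high. Group means were 185 ± 3.65 RPKM in siCtrl (SD, n = 2) and 109.8 ± 42.8 RPKM in siEwsr1 (SD, n = 3), or 59.4% of siCtrl. The log2 difference was -0.80 (SE 0.24), and it was -0.56 without siEwsr1 replicate 2 and -1.08 without siEwsr1 replicate 3. RPKM is computed here over all 319 bases. The treatment of reads in the stretch shared with Ccnb1ip1 is not given in the sources used here. Genes of up to 400 bases wholly covered by another gene's exons on the same strand were above 0 in 1.36% of cases. For those not covered it was 24.8%. If the shared reads of Rpph1 were likewise counted for neither gene, these levels are too low and rest on reads of the 86 bases of Rpph1 alone. Ccnb1ip1 itself stood at 2.29 and 2.42 RPKM in siCtrl and 3.11, 3.63 and 2.37 RPKM in siEwsr1.

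A gene similar to Rpph1 holds many reads, so the level of Rpph1 is uncertain where a read could fit both. Rprl3, an RNase P RNA-like gene named here after its values were seen, is 86.0% identical to Rpph1. It had 6823 and 5423 reads in siCtrl and 6021, 15104 and 5294 reads in siEwsr1. In the same order Rpph1 had 942, 1006, 464, 511 and 879 reads, so the excess of Rprl3 differed widely between libraries. Rprl3 was highest in siEwsr1 replicate 2, the library in which Rpph1 was lowest. Its groups overlapped, at 1286 ± 292 RPKM in siCtrl (SD, n = 2) and 1622 ± 729 RPKM in siEwsr1 (SD, n = 3), with a log2 difference of 0.28 (SE 0.38, adjusted p = 0.724). How reads that map to several genes were assigned is not given in the sources used here, and their part in the value of Rpph1 was not tested.

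The telomerase RNA gave the least settled difference. Terc stood at 32.99 and 73.5 RPKM in siCtrl (220 and 538 reads) and at 31.3, 23.9 and 29.1 RPKM in siEwsr1 (199, 216 and 215 reads). The siEwsr1 libraries lay close together, while the siCtrl libraries differed 2.23-fold, and siCtrl replicate 1 was only 1.06 times the highest siEwsr1 library. Group means were 53.2 ± 28.6 RPKM in siCtrl (SD, n = 2) and 28.1 ± 3.77 RPKM in siEwsr1 (SD, n = 3), or 52.8% of siCtrl, with a log2 difference of -0.80 (SE 0.27). The size rested on siCtrl replicate 2: without it the difference was -0.22, and without siCtrl replicate 1 it was -1.36. The digits of the value in siCtrl replicate 1 also allow 22 reads (3.30 RPKM) in place of 220, a reading under which that library would lie below every siEwsr1 library. Counting error was 4.31% to 7.09% of each Terc value, far less than the gap between the siCtrl libraries. The separation of the groups, however, rests on siCtrl replicate 1 lying above siEwsr1 replicate 1. The 95% counting intervals of these values, 192 to 251 and 172 to 229 reads, overlapped, so the separation lay within counting error.

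**Figure D3:**
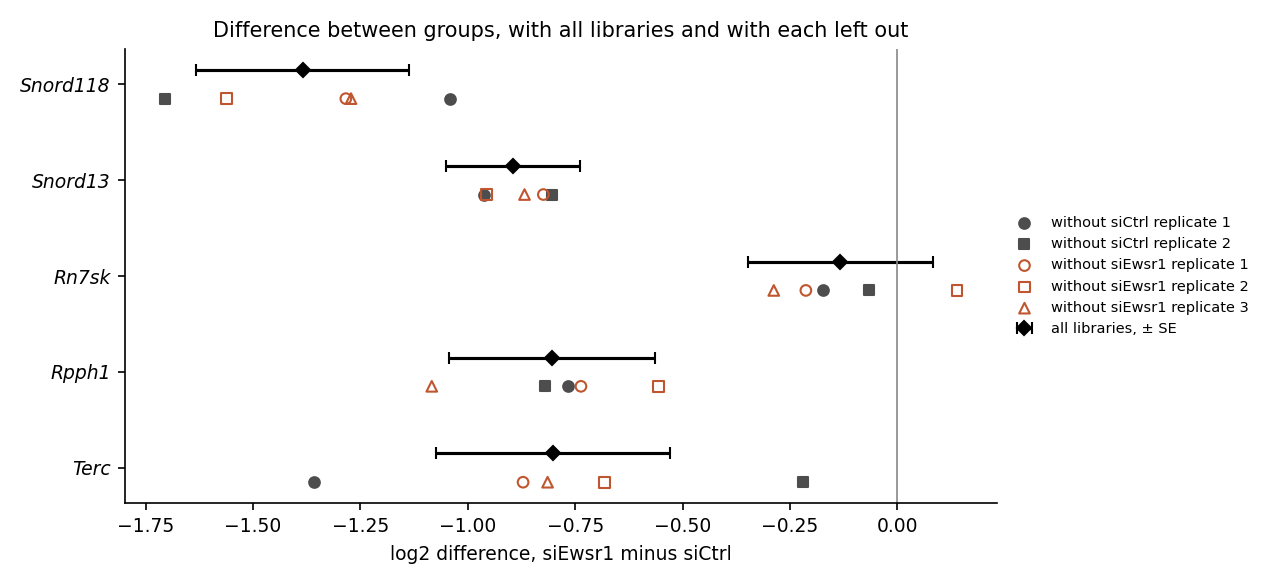
Log2 difference (siEwsr1 minus siCtrl) of the 5 genes above 0, with all libraries (diamonds, bars are the SE) and with each library left out in turn (other marks). Terc moves from -0.22 to -1.36 with the choice of siCtrl library, Rn7sk changes sign without siEwsr1 replicate 2, and Snord13 moves least.

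Rmrp had no value to compare. Its entries, of 281 and 271 bases, were both listed at 0 in all 5 libraries, while Rpph1, the RNA of the related particle, had 464 to 1006 reads. Genes of up to 400 bases that are wholly covered by exons of another gene on the same strand were above 0 in 8 of 588 cases (1.36%), against 100 of 275 (36.4%) for those covered on the opposite strand alone and 2590 of 10461 (24.8%) for those not covered. The ribozyme entry is wholly covered by the lincRNA entry, and only 10 bases of the lincRNA entry are its own. A listed 0 under this annotation therefore gives no upper limit on the amount of Rmrp RNA. Exons of Ccdc107 on the opposite strand also overlap 124 bases of each entry, and Ccdc107 differed by 0.01 (SE 0.14, adjusted p = 0.981).

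Annotated genes next to the 6 RNAs were tested, since the strand setting of the counting is not given and reads of neighbours could enter a small gene's count. None of the 9 tested neighbours within 5 kb was called. Parp2, a poly(ADP-ribose) polymerase whose start lies 74 bases from that of Rpph1 on the other strand, stood at 14.6 and 13.2 RPKM in siCtrl and 12.3, 13.3 and 12.9 RPKM in siEwsr1 (log2 difference -0.10, SE 0.10, adjusted p = 0.611). Ccnb1ip1 differed by 0.35 (SE 0.22, adjusted p = 0.382). Tmem107, a cilium gene that ends 134 bases before Snord118 on the same strand, differed by 0.13 (SE 0.16, adjusted p = 0.678). Tti2, which starts 348 bases from the start of Snord13 on the other strand, differed by -0.17 (SE 0.10, adjusted p = 0.381). Beside Rn7sk, the lincRNA C920006O11Rik differed by -0.39 (SE 0.46, adjusted p = 0.660) and the kinase gene Ick by -0.09 (SE 0.13, adjusted p = 0.754). Arhgef39, on the strand of Rmrp, differed by -0.56 (SE 0.16, adjusted p = 0.0805) with groups that did not overlap, and passed the test without siEwsr1 replicate 3 (-0.65, adjusted p = 0.00485). The pseudogene Gm21960 beside Terc differed by -0.33 (SE 0.36, adjusted p = 0.626). Gm12306 and Gm25371 beside Snord118 had 16 and 6 reads over all libraries and were not tested. A p above the threshold does not show that a neighbour was unchanged.

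Genes linked to these RNAs were described from 7 lists made by known function, with earlier results of these data known. The lists held 81 genes, of which 80 were tested. Of the 80, 4 rose (Hexim1, Thumpd1, Dcp2 and Polr3b) and 2 fell (Snapc4 and Trove2), together 7.5%. Of all tested genes 5.28% were called, 2.45% higher and 2.83% lower. None of the 6 was called when either siCtrl library was left out; the directions did not change. Without siCtrl replicate 1 the adjusted p was 0.0726 for Thumpd1, 0.104 for Hexim1, 0.206 for Polr3b, 0.213 for Dcp2, 0.272 for Snapc4 and 0.282 for Trove2. Without siCtrl replicate 2 it was 0.0575, 0.265, 0.185, 0.288, 0.394 and 0.281 in the same order. Without siEwsr1 replicate 1, Thumpd1 alone of the 6 was called, and without siEwsr1 replicate 2 Snapc4 was not (0.0822). With no filter on low values Thumpd1 alone was called, and with pseudocount 1 or with the variance trend on RPKM Dcp2, Snapc4 and Trove2 were not.

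Of the partners of 7SK, 1 passed the test, and all had positive differences. Hexim1, the protein that inhibits P-TEFb when bound to 7SK, rose from 7.50 and 6.25 RPKM in siCtrl to 10.3, 10.5 and 12.0 RPKM in siEwsr1. The groups did not overlap, and its log2 difference was 0.68 (SE 0.12, adjusted p = 0.0131). All 7 genes of the 7SK particle and P-TEFb (also Larp7, Mepce, Hexim2, Cdk9, Ccnt1 and Ccnt2) had differences above 0, from 0.09 to 0.68, with a median of 0.18 beside -0.01 over all tested genes. The groups overlapped in Larp7, Mepce, Hexim2 and Cdk9. Differences were above 0 also in 8 of 10 telomerase proteins, 11 of 14 polymerase III genes and 8 of 12 genes of the box C/D list. They were above 0 in 5 of 11 RNase P and MRP proteins, 6 of 11 transcription factors and 7 of 15 end-binding and turnover proteins. Rn7sk itself did not separate the groups.

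The proteins of RNase P and RNase MRP gave no call. None of the 11 tested was called, the median difference was -0.04, and the smallest adjusted p was 0.0726, for Pop4 (0.47, SE 0.13), named after its value was seen. Rpp38, an abundant subunit of the list, stood at 44.6 and 47.7 RPKM in siCtrl and 41.2, 43.5 and 37.8 RPKM in siEwsr1 (-0.16, SE 0.11, adjusted p = 0.414). Rpp30 differed by 0.13 (SE 0.16, adjusted p = 0.684), and no level is given for it because its exonic length was solved from the values.

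Among 10 telomerase proteins no gene was called, and the median difference was 0.20. The most abundant, Nhp2, an H/ACA core protein, stood at 188 and 219 RPKM in siCtrl and 191, 158 and 199.8 RPKM in siEwsr1 (-0.14, SE 0.11, adjusted p = 0.498). Nop10, another core protein, stood at 65.6 and 57.3 RPKM in siCtrl and 80.4, 82.4 and 62.8 RPKM in siEwsr1 (0.30, SE 0.14, adjusted p = 0.228). Both genes had overlapping groups. The smallest adjusted p of the list was 0.0582, for Gar1 (0.46, SE 0.12), named after its value was seen.

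In the list of 12 box C/D proteins and factors linked to U8 and U13, 2 rose and none fell, with a median of 0.11. Neither of the 2 is a box C/D core protein, and an action of either on U8 or U13 was not measured. Thumpd1, an adaptor through which the acetyltransferase Nat10 acts on tRNA, rose from 23.1 and 24.2 RPKM in siCtrl to 41.8, 41.7 and 38.9 RPKM in siEwsr1 (0.80, SE 0.09, adjusted p = 0.00247). The siEwsr1 libraries all lay above both siCtrl libraries. Dcp2, an enzyme that removes caps from messages, rose from 10.99 and 10.8 RPKM to 14.7, 15.4 and 13.8 RPKM (0.43, SE 0.09, adjusted p = 0.0277). The core proteins Fbl, Nop56, Nop58 and Snu13 differed by 0.01 to 0.17 with none called, and Nat10 by 0.16 (SE 0.09, adjusted p = 0.328).

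The machinery that transcribes small RNA genes gave few calls. Of 11 transcription factors of these genes 1 fell and none rose, with a median near 0. Snapc4, the largest subunit of the complex that binds the proximal promoter element of snRNA-type genes, stood at 8.75 and 9.23 RPKM in siCtrl and 5.61, 5.62 and 7.33 RPKM in siEwsr1 (-0.53, SE 0.12, adjusted p = 0.0373). As in Rpph1, siEwsr1 replicate 3 lay nearest to the controls. In Snord118 and Snord13 the nearest was siEwsr1 replicate 2, and in Terc siEwsr1 replicate 1. Of 14 RNA polymerase III subunits and regulators 1 rose, Polr3b, the subunit next in size to the largest, from 9.37 and 9.96 RPKM to 13.8, 13.5 and 13.3 RPKM (0.50, SE 0.09, adjusted p = 0.0147), with a median of 0.13 over the list. Of 15 tested proteins that bind or turn over the ends of polymerase III transcripts 1 fell, Trove2, which encodes the Ro antigen, from 18.2 and 17.7 RPKM to 13.5, 13.6 and 11.3 RPKM (-0.47, SE 0.11, adjusted p = 0.0356), with a list median near 0.

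**Figure D4:**
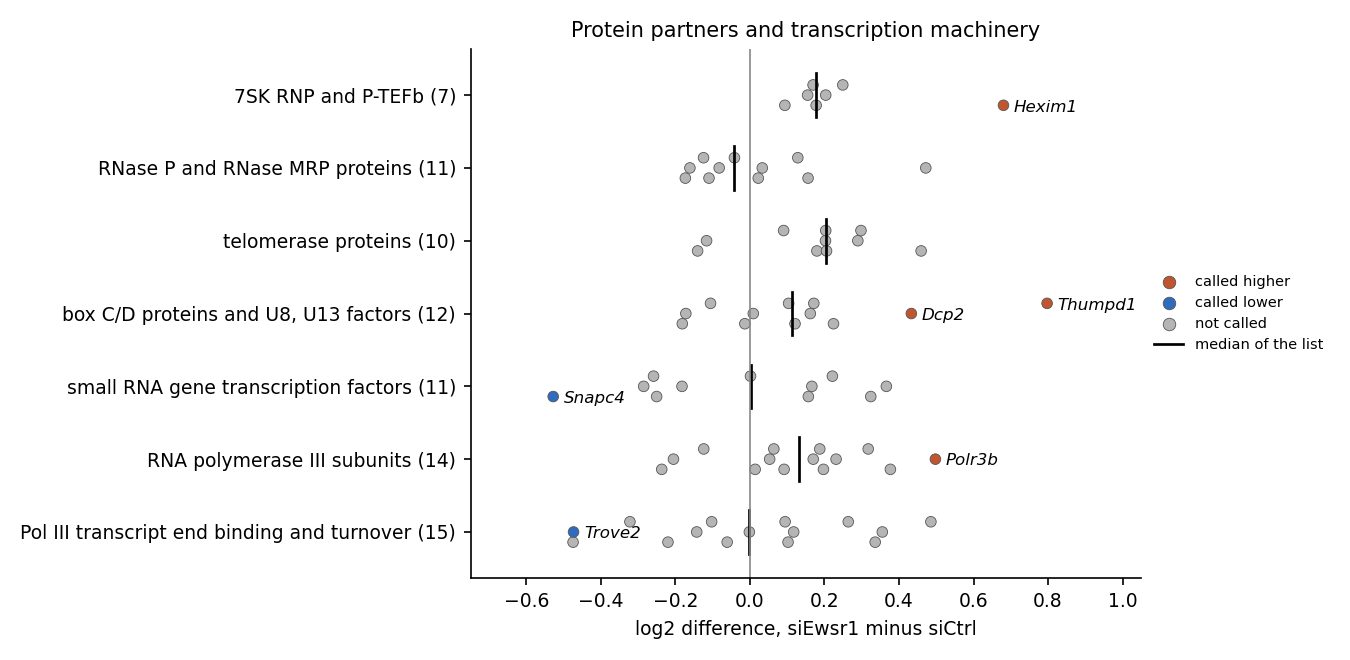
Log2 difference (siEwsr1 minus siCtrl) of each tested gene in 7 lists of protein partners and machinery (number tested in brackets); red points were called higher, blue points lower and grey points not called, and vertical bars are list medians. The 7 genes of the 7SK list all lie above 0, and 6 of the 80 genes were called.

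Other short RNAs were set beside the 5 genes, of which Snord118 and Snord13 are annotated as snoRNA, Rn7sk and Terc as misc_RNA and Rpph1 as ribozyme. Among 97 other tested small nucleolar RNA genes the median difference was 0.24, with 1 called higher and 1 lower, and the groups separated downward in 11 and upward in 23. Snord118 (-1.38) and Snord13 (-0.90) lay below the lower quartile of these genes, which was -0.08. Among 28 spliceosomal and other snRNA genes the median was -0.73, with 7 called lower and none higher, and the groups separated downward in 16 and upward in 1. Of all tested genes 2.83% were called lower and 2.45% higher, and the groups separated downward in 20.5% and upward in 19.4%. The 19 other misc_RNA genes had a median of 0.18 and a lower quartile of -0.14, below which Terc (-0.80) lay and Rn7sk (-0.13) did not. The 2 other tested ribozyme genes, Rprl2 (0.14) and Rprl3 (0.28), were above 0 where Rpph1 was at -0.80. The 10 scaRNA genes had a median of 0.06, and no gene of the misc_RNA, ribozyme and scaRNA classes was called. As shares of all counted reads, small nucleolar RNA genes held 0.0510% and 0.0519% in siCtrl and 0.0597%, 0.0854% and 0.0567% in siEwsr1, and snRNA genes held 0.0253% and 0.0232% in siCtrl and 0.0153%, 0.0198% and 0.0127% in siEwsr1. These class values are descriptions, since short RNAs of a library share its preparation.

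**Figure D5:**
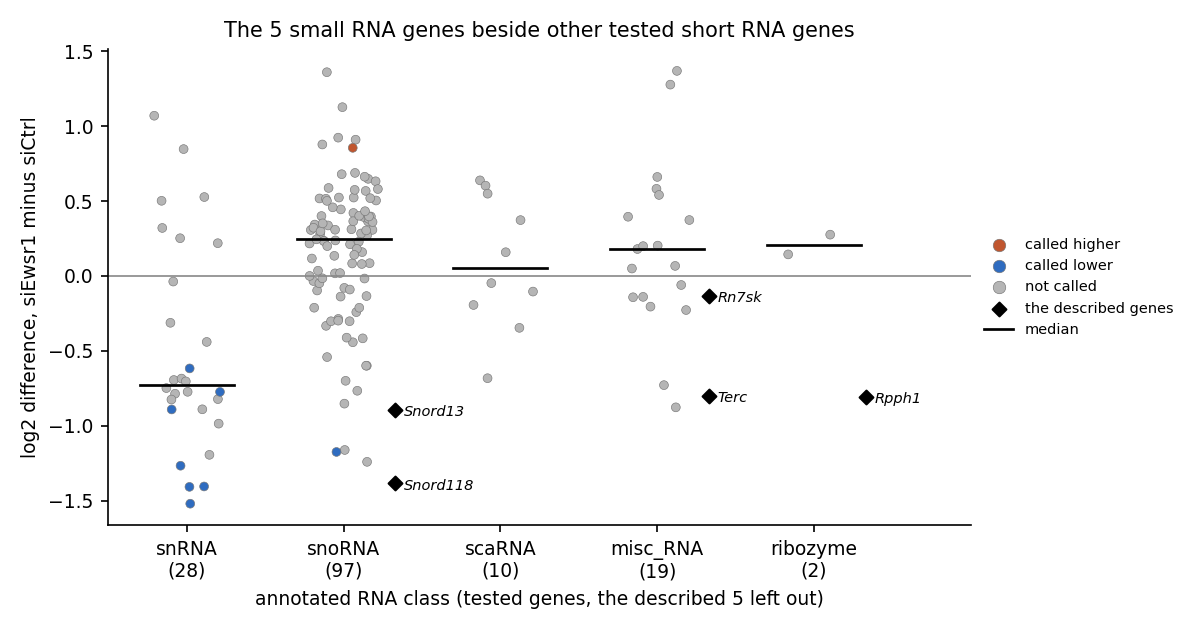
Log2 difference (siEwsr1 minus siCtrl) of tested genes in 5 annotated classes of short RNA (number in brackets, without the described genes); points are genes, red called higher and blue called lower, horizontal bars are medians, and black diamonds are the 5 described genes. The snRNA median is -0.73 and the snoRNA median 0.24, and Snord118 and Snord13 lie at the lower end of the snoRNA genes.

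The genes with the most similar profiles were found by the smallest root mean square distance between centred log2 values over the 5 libraries. For Snord118 they were Il33 (0.06), Fam186b (0.11) and Arhgdib (0.12), and for Snord13 they were Pdlim3 (0.05), Ptpre (0.05) and 4933412E12Rik (0.07). For Rn7sk they were Serinc2 (0.05), Lingo3 (0.05) and Rpp25l (0.06), the last a protein of the RNase P list. For Rpph1 they were Tlr2 (0.06), Yjefn3 (0.06) and Magea4 (0.07). Terc had the most distant nearest genes, Gm48602 (0.16), Ngb (0.17) and Gm44021 (0.18). With 5 libraries and 14862 genes such matches are a description, and several of these genes hold few reads (10 per library on average for Magea4).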

How the data were processed

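Total RNA of 5 N2a libraries (siCtrl 2, siEwsr1 3, grouped by title) was sequenced from a stranded kit with ribosomal RNA removed, per the labels' protocols. Column purification and library size selection recover RNAs as short as these incompletely, so levels relative to messages are not absolute. Per the submitters' processing notes, the authors worked on GRCm38 with edgeR, with STAR 2.5.2b and with featureCounts 1.5.1. For annotation release, strand setting, overlapping genes and multi-mapping reads, the handling is not given in the sources used here.

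Values deposited by the authors (unit: other) behave as RPKM, but those of 1 or more lost the decimal point. Each was restored so that value times GENCODE M21 exonic length times counted reads gave a whole number within 1e-06 reads. Of 27255 genes above 0, 26641 were restored with the M21 length, 614 with a length solved from the values, and 98 were dropped for odds of the reading under 20. Of the members' 25 values above 0, 3 also allow a reading 10 times lower, and each would also give whole reads at a reading 10 times higher. Between such readings the choice favoured lower ones and similar levels of a gene across libraries, without use of the group labels. The agreement of libraries in scale is thus in part assumed. Of intact values, 98.5% to 98.6% were whole. The recovered reads sum to 0.155% to 0.159% above the totals.

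Genes with 10 or more reads at the median library size in 2 libraries were fitted with limma 3.58.1 (R 4.3.3) on log2(RPKM + 0.1) after trimmed-mean scaling (30% of ratios, 5% of levels), with robust moderation and Benjamini-Hochberg adjustment over all 14862 tested genes, called under 0.05. The trend of the variance on mean log2 CPM, in place of RPKM, was chosen after seeing the data. Adjusted p-values are from this fit, except those given with a named alternative or as a range over the alternatives. The scripts were tested on simulated data. Similar genes were found with BLAST+ 2.17.0 (at least 80% of the length).

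The members and lists were chosen with earlier results of these data known. Genes named by rule are the members, Ewsr1, all neighbours within 5 kb, the called genes of each list or else its 2 most abundant, and the 3 genes most like each member. Other genes named (uncalled genes of the 7SK and box C/D lists, Pop4, Gar1, Rprl2 and the similar genes Rprl3, Gm24208 and Gm23037) were chosen after their values were seen. The planned ratio of Rmrp to Rpph1 could not be computed, since Rmrp is listed at 0. Bases after the end of the RNAs were not searched, and the sequence of Snord13 and the names of some marker genes are not reported here. The alternatives tried are given at the end. Intervals and errors from reads cover counting error only.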

Additional observations from a re-analysis of the deposited data

How the results depend on the processing

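Depth limited Snord118 most (60 to 236 reads) and Rn7sk least. Under 14 alternatives the log2 differences of Snord118, Snord13, Rpph1 and Terc stayed negative, while Rn7sk was positive without siEwsr1 replicate 2 (0.14) and negative under the others. Leaving out 1 library each gave -1.71 to -1.04 for Snord118, -0.96 to -0.81 for Snord13, -0.29 to 0.14 for Rn7sk, -1.08 to -0.56 for Rpph1 and -1.36 to -0.22 for Terc. Ewsr1 ranged from -0.98 to -0.94 (adjusted p 4.635e-16 to 0.0401).

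Genes called higher and lower, 364 and 421 in the fit as reported, were 174 and 223 with pseudocount 1, 20 and 40 with no filter on low values, and 119 and 153 with the variance trend on mean RPKM (added after seeing the data). Leaving out 1 library each gave 12 to 1904 higher and 4 to 1864 lower. The low ends came without siCtrl replicate 1, and the high ends without siEwsr1 replicate 3. Of the partner and machinery genes, 4 higher and 2 lower as reported, 1 was higher with no filter; 0 were lower with pseudocount 1, no filter or the trend on RPKM. Leaving out 1 library gave 0 to 27 higher, 0 to 10 lower and 0 to 1 neighbouring genes called. The members among the genes called, 2 as reported, were 0 with no filter, without either siCtrl library and without siEwsr1 replicate 1, 1 with the trend on RPKM, and 3 without siEwsr1 replicate 3 and with the replicate block.

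Replicate numbers are shared by 2 pairs of libraries, and the deviations of same-numbered libraries correlated at 0.0286 and -0.13. The deviations of the 2 siCtrl libraries mirror each other, so these values cannot show whether the numbers pair the libraries. With the replicate block the fit called 1654 genes higher and 1705 lower, 26 partner and machinery genes higher and 7 lower, and 1 neighbouring gene (Arhgef39, -0.65). The members' differences with the replicate block were -1.27 for Snord118, -0.87 for Snord13, -0.29 for Rn7sk, -1.09 for Rpph1 and -0.82 for Terc. Number 3 occurs in siEwsr1 alone, so the block fit takes the group difference from the libraries numbered 1 and 2. It is therefore close to the fit without siEwsr1 replicate 3, which gave -1.27, -0.87, -0.29, -1.08 and -0.81 in the same order, and is not a separate check. Why more genes were called without siEwsr1 replicate 3 was not tested.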
